A study of Mus musculus with 4 samples.

Results

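The genes described here are the mouse RAS exchange factors of the SOS, RASGRF and RASGRP families, chosen by gene symbol: Sos1, Sos2, Rasgrf1, Rasgrf2, Rasgrp1, Rasgrp2, Rasgrp3 and Rasgrp4. All 8 were found among the 24421 genes of the deposited tables, and all 8 had values high enough to be tested. They were compared between cells labelled excitatory and cells labelled inhibitory, in a study of ERK signalling in a mouse model of Noonan syndrome, which in people arises from germline changes in RAS pathway genes, SOS1 among them. Each label has 2 libraries, and each library holds 100 fluorescent cells drawn up by hand from the brain of male mice aged 3 to 5 months. The excitatory cells are labelled positive for αCaMKII, a kinase of forebrain glutamatergic neurons, and the inhibitory cells positive for vGAT, the vesicular GABA transporter. The colonies named in the labels carry αCaMKII-Cre or vGAT-IRES-Cre and were kept by crossing to C57Bl/6J. The fluorescent reporter, the brain region, and whether any animal carried a Noonan mutation are not stated in the labels used here. Nor is it said that replicates are different animals, and p-values here describe the spread between libraries, which may be technical.

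RAS proteins are membrane switches that are on when they hold GTP and off when they hold GDP. Exchange factors turn them on by prying out GDP through a catalytic domain named after yeast CDC25, and GTPase-activating proteins turn them off. The families differ in what calls them to the membrane. SOS proteins are carried to activated receptor tyrosine kinases by the adaptor GRB2, RASGRF proteins respond to calcium through calmodulin, and RASGRP proteins bind the lipid diacylglycerol. In brain, RASGRF1 and RASGRF2 are known for linking glutamate receptors to ERK and synaptic plasticity, while the RASGRP genes are best known from lymphocytes, platelets and mast cells.

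Values are log2 of reads scaled by the authors to each library, and differences are excitatory minus inhibitory on that scale. Depth was estimated from the step between the lowest values at 6.2e+07 to 7.42e+07 reads per library. The step was 1.29 and 1.23 in the excitatory and 0.720 and 0.874 in the inhibitory libraries. The smallest value above 0 was that of 1 read in the excitatory and of 2 reads in the inhibitory libraries, so a listed 0 can hold 1 read in the latter. Mbp, the myelin basic protein gene, had the highest value of every library and was 21.33 in all 4, the only gene above 0 with an identical value in each. The deposited scale thus sets Mbp equal, and on it the median difference of the 13619 genes tested was 0.52. After median-of-ratios scaling, called scaled below, that median was -0.01 and Mbp was lower in the excitatory libraries by 0.54 (scaled difference -0.54). Markers followed the labels only in part. Slc32a1, which encodes vGAT, read 0 in every library, while Camk2a, which encodes αCaMKII, was 16.53 and 16.46 under the excitatory and 15.60 and 15.66 under the inhibitory label. Of the GABA-synthesis genes, neither Gad1 (difference -0.48, limma adjusted p = 0.0649) nor Gad2 (-0.08, 0.824) passed, but after scaling Gad1 was higher under the inhibitory label (difference -1.01, limma adjusted p = 0.00777). Glial RNA was abundant throughout: the summed level of 7 astrocyte markers was 20.15 to 20.96, and that of 6 oligodendrocyte markers 21.39 to 21.50. Directions below are therefore between libraries as labelled.

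Of the 8 exchange factors, Rasgrf1 and Sos1 were higher in the excitatory libraries, Rasgrp3, Sos2 and Rasgrp1 were higher in the inhibitory libraries, and Rasgrf2, Rasgrp2 and Rasgrp4 did not pass limma's moderated test (Benjamini-Hochberg adjusted p under 0.05 over all genes tested). Of all genes tested, 71.8% passed, 45.0% in the excitatory and 26.8% in the inhibitory direction, so 5 of 8 is not more than the background. After scaling 4 of 8 passed, against 65.7% of all genes: Rasgrf1 in the excitatory direction and Rasgrp3, Sos2 and Rasgrp1 in the inhibitory direction. Without any 1 library 2 to 3 members passed, among 6103 to 6551 genes in place of 9777. The median difference of the 8 genes was 0.21, and -0.33 after scaling. The 2 libraries of one label did not overlap with those of the other for 7 of the 8 genes, all but Rasgrp2, beside 86.4% of all genes tested.

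**Figure D1:**
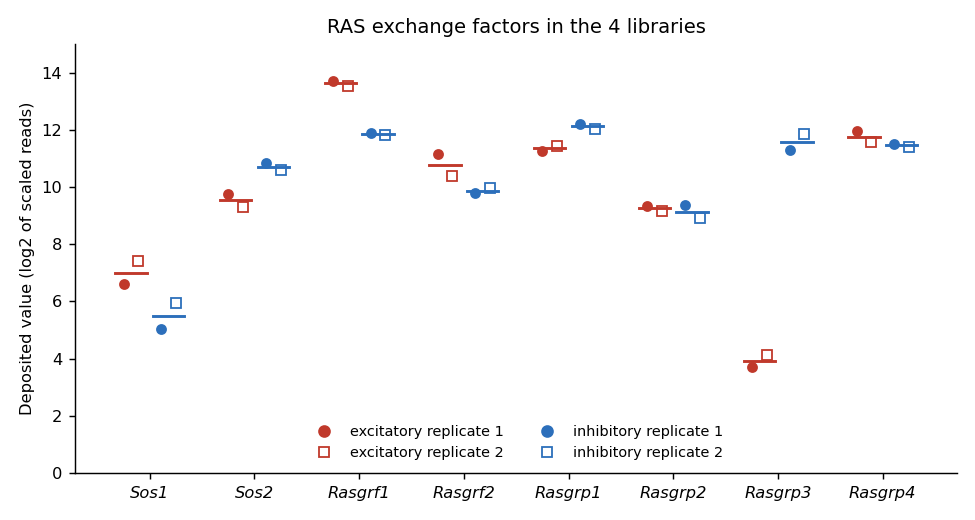
Deposited value (log2 of scaled reads, vertical axis) of each RAS exchange factor in the 4 libraries; points are libraries and short lines the mean of 2 libraries per label. Rasgrp3 lies at 3.70 and 4.11 in the excitatory and at 11.29 and 11.84 in the inhibitory libraries, while Rasgrp2 lies between 8.92 and 9.36 in all 4.

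Promoter sequences are shown for the 4 genes that passed on both scales, since Rasgrp3, Rasgrp1 and Sos2 were higher under the inhibitory label and Rasgrf1 under the excitatory one. They come from RefSeq (GRCm38.p6, the build of mm10), where 7 of the 8 genes have an entry, and each ends where the annotated exons begin or at the start site. All are written 5′ to 3′ along the gene's strand. Capitals mark matches to any of 7 motifs searched on both strands in the 250 bases before the start, none of which overlapped another here. The motifs were chosen after the values were known.
Rasgrp3, chr17:75435655-75435895, plus strand: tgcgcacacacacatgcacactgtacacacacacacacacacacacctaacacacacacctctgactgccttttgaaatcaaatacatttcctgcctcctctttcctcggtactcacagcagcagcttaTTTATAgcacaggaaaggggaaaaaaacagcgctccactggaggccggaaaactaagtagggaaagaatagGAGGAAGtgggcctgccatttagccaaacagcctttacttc
Rasgrp1, chr2:117343002-117343127, minus strand: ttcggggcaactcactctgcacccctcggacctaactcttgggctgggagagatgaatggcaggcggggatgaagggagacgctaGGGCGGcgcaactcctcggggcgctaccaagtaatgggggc
Sos2, chr12:69681853-69682102, minus strand: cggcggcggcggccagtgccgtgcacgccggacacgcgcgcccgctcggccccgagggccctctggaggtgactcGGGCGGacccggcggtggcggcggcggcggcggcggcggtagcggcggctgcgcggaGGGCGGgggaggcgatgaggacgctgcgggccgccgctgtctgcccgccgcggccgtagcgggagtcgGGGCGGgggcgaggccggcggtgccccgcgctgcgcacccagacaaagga
Rasgrf1, chr9:89909525-89909774, plus strand: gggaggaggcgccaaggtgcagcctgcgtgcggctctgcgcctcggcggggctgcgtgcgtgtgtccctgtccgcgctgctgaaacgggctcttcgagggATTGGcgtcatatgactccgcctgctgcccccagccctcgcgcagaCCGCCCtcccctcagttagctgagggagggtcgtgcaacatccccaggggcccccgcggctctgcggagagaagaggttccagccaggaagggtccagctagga
In the 250 bases before the start site, Rasgrp3 held 4 CpG dinucleotides, below the median of 6 over 32851 mouse promoters. Rasgrp1 and Rasgrf1 held 21 each and Sos2 47. A second start site of Rasgrp3, not shown, held 8 and had no match to any of the motifs. At the start site shown, Rasgrp3 held TATAAA, found in 12.4% of promoters, and had no GGGCGG. It also held GAGGAAG there, a motif of the myeloid factor PU.1 found in 10.6%. The GC box GGGCGG, found in 32.7% of promoters, occurred 3 times in Sos2 and once each in Rasgrp1 and Rasgrf1, and Rasgrf1 also held CCAAT (33.9%). None of the 4 held the cAMP response element TGACGTCA (1.55% of promoters), the E-box CACGTG (6.02%) or the EGR motif GCGTGGGCG (0.536%). A match describes the letters of the window and is not evidence of binding.

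SOS1 and SOS2 are close relatives that load RAS downstream of growth factor receptors. Sos1, on chromosome 17 (80393751 to 80480453 of mm10), had 6.60 and 7.41 in the excitatory and 5.05 and 5.95 in the inhibitory libraries. Both excitatory values were above both inhibitory ones, but the spread was wide, with an SD of 0.57 and 0.64 (n = 2 each). The difference was 1.50 (SE 0.50, limma adjusted p = 0.0474), and 0.95 after scaling (adjusted p = 0.161). These values correspond to only 46 to 138 estimated reads per library, and the call was lost without any 1 of the 4 libraries (limma adjusted p from 0.124 to 0.286).

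Sos2, on chromosome 12 (69583762 to 69681852), went the other way. It had 9.75 and 9.30 in the excitatory and 10.84 and 10.58 in the inhibitory libraries, so each inhibitory value was above each excitatory one. The difference was -1.19 (SE 0.25, limma adjusted p = 0.0113), a 2.27-fold higher level in the inhibitory libraries. It was -1.72 after scaling (adjusted p = 0.00415). Leaving out any 1 library ended this call on the deposited scale, with a limma adjusted p of 0.0553 or 0.0837 when excitatory replicate 1 or 2 was removed, and 0.132 or 0.0986 when it was inhibitory replicate 1 or 2.

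The balance between the SOS genes can be read within each library, where a factor common to the library cancels. The gene-dependent adjustment described under processing need not cancel. Such ratios are of read values and not per length, but length cancels when a ratio is compared between labels. The value of Sos2 was above that of Sos1 in all 4 libraries, 8.90-fold and 3.73-fold in the excitatory and 55.6-fold and 24.8-fold in the inhibitory libraries. The log2 ratio of Sos1 to Sos2 was thus -2.53 ± 0.89 (SD, n = 2) against -5.21 ± 0.82, a difference of 2.69. The labels did not overlap in this ratio, and single genes did not for 86.4% of all genes tested. With 2 libraries against 2, the exact two-sided permutation test cannot give a p below 0.333, which was the p of this and of each of the 4 other ratios compared.

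RASGRF proteins are calcium-responsive exchange factors of neurons, and mouse Rasgrf1 is an imprinted gene expressed in brain from the paternal allele. Rasgrf1, on chromosome 9 (89909908 to 90026977), had 13.69 and 13.55 in the excitatory and 11.90 and 11.83 in the inhibitory libraries. The libraries of one label lay close together (13.62 ± 0.10 and 11.86 ± 0.05, SD, n = 2), and the labels were well apart. The difference was 1.76 (SE 0.12, limma adjusted p = 3.30e-04), a 3.38-fold higher level in the excitatory libraries, and 2.33-fold after scaling (adjusted p = 0.00138). Rasgrf1 kept its direction and passed without any 1 library (limma adjusted p from 0.0191 to 0.0237).

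Rasgrf2, on chromosome 13 (91880400 to 92131656), had 11.14 and 10.39 in the excitatory and 9.79 and 9.95 in the inhibitory libraries. The excitatory values were both the higher ones, but they varied between replicates (10.77 ± 0.53, SD, n = 2). The difference was 0.90 (95% interval 0.08 to 1.72) and its limma adjusted p of 0.0516 missed the threshold, which it passed without excitatory replicate 2 (0.0435). After scaling the difference was 0.36 (interval -0.42 to 1.14, adjusted p = 0.325). The ratio of Rasgrf1 to Rasgrf2 was 5.85 and 8.90 in the excitatory and 4.32 and 3.68 in the inhibitory libraries, a difference of 0.86 between the mean log2 ratios.

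RASGRP proteins carry a diacylglycerol-binding domain and are best known from blood cells. Rasgrp3, a gene of B lymphocytes and endothelial cells among other types, lies on chromosome 17 (75435896 to 75529054), and its promoter is shown above. It had 3.70 and 4.11 in the excitatory and 11.29 and 11.84 in the inhibitory libraries. That is about 10 and 14 estimated reads against 3473 and 4180. The difference of -7.66 (95% interval -8.56 to -6.75, limma adjusted p = 1.09e-04) is a 201.9-fold higher level in the inhibitory libraries, and in size it was at or above that of 88.8% of all genes tested. After scaling it was -8.08 (adjusted p = 1.64e-04), and it passed without any 1 library (adjusted p from 0.0176 to 0.0229). The other 7 members differed by at most 1.76 in size.

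Rasgrp1, an exchange factor of T lymphocytes that is also found in forebrain neurons, lies on chromosome 2 (117279993 to 117343001). Its values were 11.27 and 11.44 in the excitatory and 12.21 and 12.03 in the inhibitory libraries, with the inhibitory ones higher in both. The difference of -0.77 (SE 0.16, limma adjusted p = 0.0110) was a 1.70-fold higher level in the inhibitory libraries, and 2.47-fold after scaling (adjusted p = 0.00350). On the deposited scale the call was lost without excitatory replicate 1 (limma adjusted p = 0.0862), excitatory replicate 2 (0.0666), inhibitory replicate 1 (0.0793) or inhibitory replicate 2 (0.0583).

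Rasgrp2, which acts mainly on RAP1 and is known from platelets, lies on chromosome 19 (6399340 to 6415216). It had 9.33 and 9.16 in the excitatory and 9.36 and 8.92 in the inhibitory libraries, which overlap. The difference was 0.11 (95% interval -0.59 to 0.80, limma adjusted p = 0.732), and -0.43 after scaling (interval -1.16 to 0.30). The interval still allows a difference of up to 0.80 on the deposited scale.

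Rasgrp4, known as a mast cell exchange factor, lies on chromosome 7 (29134851 to 29153961). It had 11.96 and 11.56 in the excitatory and 11.51 and 11.38 in the inhibitory libraries, a small step between labels that was smaller than the gap between the excitatory replicates. The difference was 0.31 (95% interval -0.21 to 0.83, limma adjusted p = 0.216), and -0.23 after scaling (interval -0.74 to 0.28). Its exons share 978 of 6363 bases (15.4%) with Fam98c on the opposite strand, a gene at 10.20 to 11.25 in the 4 libraries, and the library kits are not described as marking strand. How many of the reads listed under Rasgrp4 come from Fam98c was not tested.

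**Figure D2:**
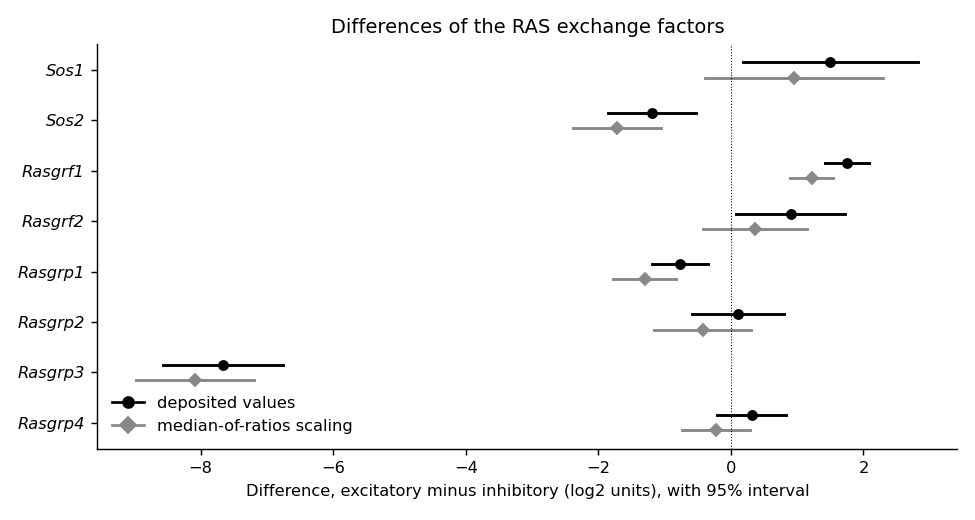
Difference between labels for each RAS exchange factor (log2 units, excitatory minus inhibitory, horizontal axis) with its 95% interval from limma, on the deposited values (black circles) and after median-of-ratios scaling (grey diamonds). Scaling moves every gene towards the inhibitory side, and the intervals of Rasgrp3, Sos2 and Rasgrp1 lie below 0 and that of Rasgrf1 above 0 on both scales.

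The RASGRP genes were also compared as ratios within libraries. The ratio of Rasgrp1 to Rasgrp3 was 189.8 and 160.8 in the excitatory libraries and 1.90 and 1.14 in the inhibitory ones. The ratio of Rasgrp2 to Rasgrp3 was 49.6 and 33.3 in the excitatory libraries, while the inverse ratio was 3.81 and 7.54 in the inhibitory ones. Rasgrp2 thus stood above Rasgrp3 under one label and below it under the other, also per length. The ratio of Rasgrp1 to Rasgrp2 was 3.83 and 4.83 in the excitatory and 7.23 and 8.60 in the inhibitory libraries. The differences between the mean log2 ratios were 6.89, 7.77 and -0.87 in that order.

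To compare levels between genes, the linear values were divided by the length of each gene's merged exons and expressed as a share of the sum over the 8 members. RASGRF genes made up 53.2% ± 0.99 (SD, n = 2) of this sum under the excitatory and 17.9% ± 0.17 under the inhibitory label. RASGRP genes made up 42.8% ± 1.19 and 73.8% ± 1.12, and SOS genes 4.0% ± 0.19 and 8.27% ± 0.95. The 3 family shares did not overlap between the labels, but single genes did not either for 86.4% of all genes tested. As parts of the same sum, the shares also do not vary separately. In the excitatory libraries the order per length was Rasgrf1, Rasgrp4, Rasgrp1, Rasgrf2, Sos2, Rasgrp2, Sos1 and Rasgrp3, where only the neighbours Rasgrp4 and Rasgrp1 overlapped between libraries. In the inhibitory libraries it was Rasgrp1, Rasgrp3, Rasgrp4, Rasgrf1, Sos2, Rasgrf2, Rasgrp2 and Sos1, where only Rasgrp3 and Rasgrp4 overlapped. The place of Rasgrp4 counts all reads listed under it, which may include some of Fam98c. Rasgrf1 alone held 45.5% of the sum under the excitatory and 13.8% under the inhibitory label, and Rasgrp3 held 0.105% and 21.5%. Dividing by the longest transcript instead put Rasgrf1 at 59.7% and 22.8%, which moved it from rank 4 to rank 2 in the inhibitory libraries. With either length, Rasgrp3 was last in the excitatory and Sos1 last in the inhibitory libraries.

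**Figure D3:**
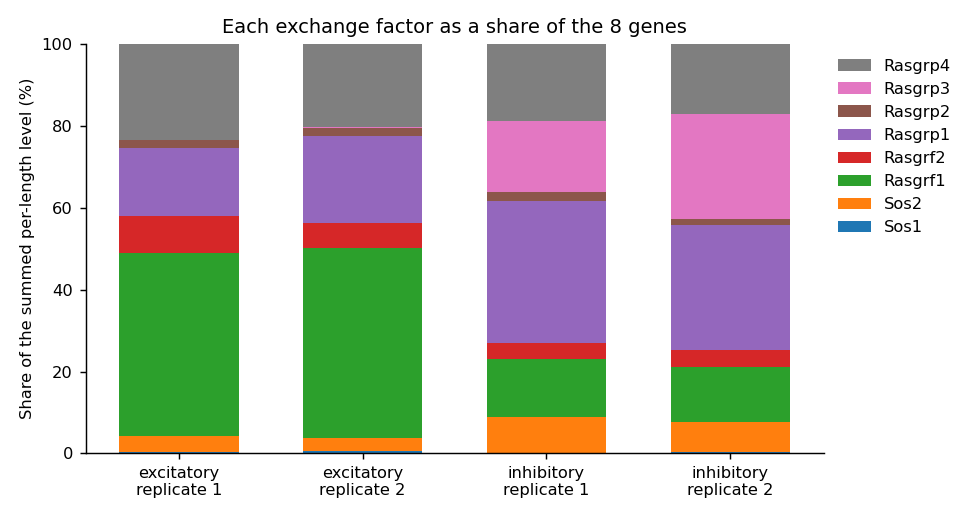
Share of each gene (%, vertical axis) in the summed per-length level of the 8 RAS exchange factors, 1 bar per library. Rasgrf1 takes 44.8% and 46.3% of the excitatory bars, and Rasgrp3 takes 17.5% and 25.5% of the inhibitory bars but under 1% of the excitatory ones.

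Markers of other cell types were set beside the RASGRP genes, which are abundant in blood-lineage cells. Of 10 microglia and leukocyte markers, 6 were higher in the inhibitory libraries, the direction of Rasgrp3, and none in the excitatory (9 and 0 after scaling). Of all genes tested, 26.8% were called in that direction, and 33.4% after scaling. The direction was not particular to these markers. Of 4 tested oligodendrocyte precursor markers, 2 were higher in the inhibitory libraries and none in the excitatory (2 and 1 after scaling). The summed level of the 10 microglia and leukocyte markers was 14.92 and 15.06 in the excitatory and 16.17 and 15.86 in the inhibitory libraries on the log2 scale. Ptprc, the leukocyte phosphatase CD45, was listed at 0 in both excitatory libraries, against 12.01 and 11.80 in the inhibitory ones. Tmem119, a microglial membrane protein gene, had 5.28 and 5.30 against 10.95 and 10.45. C1qa, a complement gene of microglia, had 11.69 and 12.05 against 12.19 and 11.81, a difference that did not pass (limma adjusted p = 0.604). Of the 6 that passed, Ptprc, Tmem119 and Aif1 also passed without any 1 library. Their part in the Rasgrp3 difference was not tested. Astrocyte markers were called mostly the other way on the deposited scale, the direction of 45.0% of all genes tested (32.3% after scaling). There, 6 of 7 were higher under the excitatory label and none under the inhibitory one (3 and 1 after scaling). The 6 became 3 when either excitatory library was left out and 4 when either inhibitory one was, and Aqp4 and Aldh1l1 passed in each case. Their part in the Rasgrf1 difference was not tested. In pools of cells, fewer cells of a type and less RNA per cell cannot be told apart.

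For the other cell types in which RASGRP genes are known, most defining markers were at or near 0. Of 8 lymphocyte markers, 4 were listed at 0 in all 4 libraries, among them Cd79a and Cd79b of B cells, while the kinase gene Lck had 4.96 and 4.21 in the excitatory and 9.04 and 8.92 in the inhibitory libraries. Of 6 mast cell markers, 5 were listed at 0 in all 4 libraries and Ms4a2 reached 1.59 in 1 library, while Rasgrp4 was above 11 in each. The Rasgrp4 values may include reads of the overlapping gene Fam98c, which was not tested. Of 6 platelet markers, Pf4, Ppbp, Gp9 and Gp6 were listed at 0 throughout. Gp1bb lay between 10.25 and 12.05 and was higher under the excitatory label. Itga2b went the other way, listed at 0 in both excitatory libraries, against 5.21 and 3.61 in the inhibitory ones. Of 7 endothelial markers, 5 were listed at 0 in all 4 libraries and no value exceeded 2.82.

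**Figure D4:**
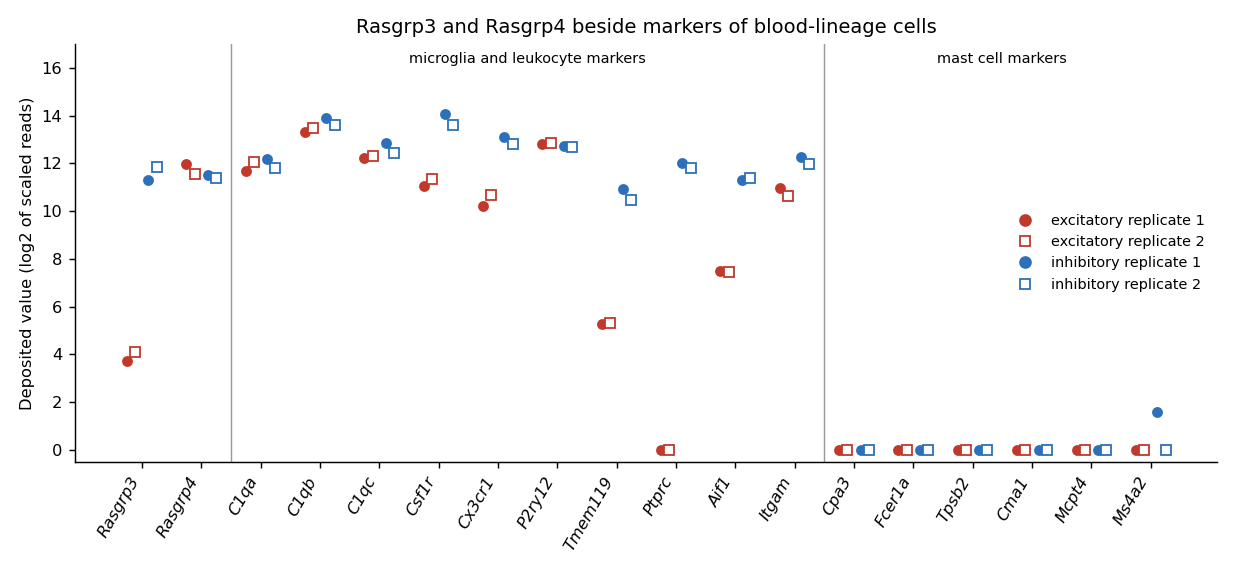
Deposited values (log2 of scaled reads, vertical axis) of Rasgrp3 and Rasgrp4 in the 4 libraries beside 10 microglia and leukocyte markers and 6 mast cell markers. Ptprc and Tmem119 separate the labels in the direction of Rasgrp3, and the mast cell markers lie at 0 except for 1 value of 1.59.

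The other genes of the pathway are given by lists. The counts are to be read against the 45.0% and 26.8% of tested genes called in each direction. The lists surrounding the exchange factors held 70 called genes in all, 41 higher under the excitatory and 29 under the inhibitory label, and 32 and 33 after scaling. Without any 1 library 43 to 50 passed.

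Among the RAS-family GTPases that exchange factors load, 3 of 8 were higher under the excitatory and 3 under the inhibitory label (1 and 3 after scaling, median difference 0.29). The 3 inhibitory calls became 1 without excitatory replicate 1, excitatory replicate 2 or inhibitory replicate 2. Hras had 15.61 and 15.45 in the excitatory and 14.67 and 14.64 in the inhibitory libraries. Mras, a GTPase of the complex that activates RAF, was higher under the excitatory label by 0.83 (SE 0.13, limma adjusted p = 0.00414), but did not pass after scaling (0.0989).

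Of 11 tested adaptors and docking genes that bring SOS to receptors, 5 were higher under the excitatory and 4 under the inhibitory label, with the same counts after scaling. They became 3 and 2 without excitatory replicate 1 and 3 and 3 without inhibitory replicate 2. Grb2, the adaptor that binds SOS itself and was named here after its values were seen, had 10.96 and 11.32 in the excitatory and 9.38 and 9.17 in the inhibitory libraries. The Grb2 difference of 1.86 (SE 0.23, limma adjusted p = 0.00175) was lost without inhibitory replicate 2 (0.0543). Irs2, a docking protein of insulin receptors, had 8.95 and 8.64 against 3.77 and 4.26. The FGF receptor docking gene Frs2 moved the other way, with 9.57 and 9.80 against 11.26 and 11.32. Its relative Frs3 was listed at 0 in both excitatory libraries, against 5.41 and 5.09 in the inhibitory ones. Irs2, Frs2 and Frs3 passed without any 1 library. For Gab2 the inhibitory libraries were listed at 0 and the excitatory ones at 8.89 and 8.09. Lat, an adaptor of T lymphocytes, showed 7.61 and 5.50 under the inhibitory label and was listed at 0 under the excitatory one, a call that ended when excitatory replicate 1 (limma adjusted p = 0.0908) or 2 (0.0900) was left out.

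Calmodulin, NMDA receptor and CDK5 genes that act on RASGRF proteins were called mostly in the excitatory direction on the deposited scale, the direction of Rasgrf1. Of 7 tested genes, 6 were higher under the excitatory and none under the inhibitory label, with a median difference of 1.22. The 6 calls depended on each library: by limma's adjusted p, 0 were left without excitatory replicate 1 (5 at an unadjusted p under 0.05), 2 without excitatory replicate 2, and 3 without either inhibitory library. After scaling the counts were 3 and 1 and the median was 0.68. Grin1, the obligatory NMDA receptor subunit, had 11.05 and 10.81 in the excitatory and 6.20 and 7.32 in the inhibitory libraries. Its call was lost when excitatory replicate 1 (limma adjusted p = 0.0780) or 2 (0.0726) was left out.

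Genes that make and remove diacylglycerol, the lipid bound by RASGRP proteins, were called in both directions. Of 10 tested phospholipase C genes, 4 were higher under the excitatory and 5 under the inhibitory label (4 and 6 after scaling, median difference -1.38). The 5 became 3 when either excitatory library was left out. Plcb2, an isoform of blood cells, was listed at 0 in both excitatory libraries, against 10.76 and 10.12 in the inhibitory ones. Plcg2, another isoform of blood cells and microglia, was also listed at 0 there and had 5.76 and 5.45. Plcg1, activated by receptor tyrosine kinases, had 1.40 and 0.35 against 7.98 and 8.30. Plcb4 and Plcd3 were the reverse, listed at 0 in both inhibitory libraries with 6.80 and 6.60 for Plcb4 and 5.83 and 6.62 for Plcd3 in the excitatory ones.

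Of 8 tested diacylglycerol kinase genes, which remove the lipid, 5 were higher under the excitatory and 3 under the inhibitory label on both scales, and the 5 became 3 when either inhibitory library was left out. Dgkb had 11.78 and 11.70 in the excitatory and 8.94 and 9.39 in the inhibitory libraries, and Dgkd 12.03 and 11.81 against 8.46 and 8.84. Dgka, known from T lymphocytes, was listed at 0 in both excitatory libraries, against 3.99 and 4.56 in the inhibitory ones. Of 7 protein kinase C genes, which bind the same lipid, 6 were higher in the excitatory libraries and 1 in the inhibitory (4 and 1 after scaling). The 6 became 2 when either excitatory library was left out, and 4 or 3 when inhibitory replicate 1 or 2 was. Prkcb had 14.77 and 14.81 against 13.64 and 13.63, and passed without any 1 library. Prkcd went the other way with 7.28 and 7.82 against 10.47 and 10.28, a call lost when inhibitory replicate 1 (limma adjusted p = 0.0553) or 2 (0.0503) was left out.

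Opposing the exchange factors, 4 of 8 tested RAS GTPase-activating protein genes were higher under the excitatory and 3 under the inhibitory label on both scales, and the 4 became 2 without excitatory replicate 1. Rasa1 had 11.97 and 11.86 in the excitatory and 9.25 and 9.61 in the inhibitory libraries, while Nf1, the neurofibromin gene, had 5.18 and 5.34 against 9.68 and 10.43. For Rasal3, known from blood cells, the excitatory libraries were listed at 0 and the inhibitory ones at 7.15 and 6.57. Of 16 tested genes of other CDC25-type exchange factors, which act on RAP and RAL, 5 were higher under the excitatory and 8 under the inhibitory label (3 and 10 after scaling), with a median difference of -1.71. These counts became 2 and 8 or 3 and 7 when excitatory replicate 1 or 2 was left out, and 3 and 5 or 2 and 4 when inhibitory replicate 1 or 2 was. Rapgef4, a cAMP-activated exchange factor of neurons, had 17.12 and 17.03 against 16.16 and 16.18. Rapgef3, its widely expressed relative, had 8.31 and 8.05 against 12.10 and 11.63. Rasgef1b was listed at 0 in both inhibitory libraries with 8.04 and 7.56 in the excitatory ones, and Kndc1 was listed at 0 in both excitatory libraries, against 6.00 and 5.89 in the inhibitory ones.

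Downstream of RAS, 3 of 7 RAF, MEK and ERK kinase genes were higher under the excitatory and 2 under the inhibitory label on both scales. By limma's adjusted p the 2 became 0 without inhibitory replicate 1 (2 at an unadjusted p under 0.05) and 1 without inhibitory replicate 2. Araf had 15.17 and 15.01 in the excitatory and 13.59 and 13.48 in the inhibitory libraries, and Mapk3, which encodes ERK1, 13.19 and 13.12 against 11.85 and 11.67.

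**Figure D5:**
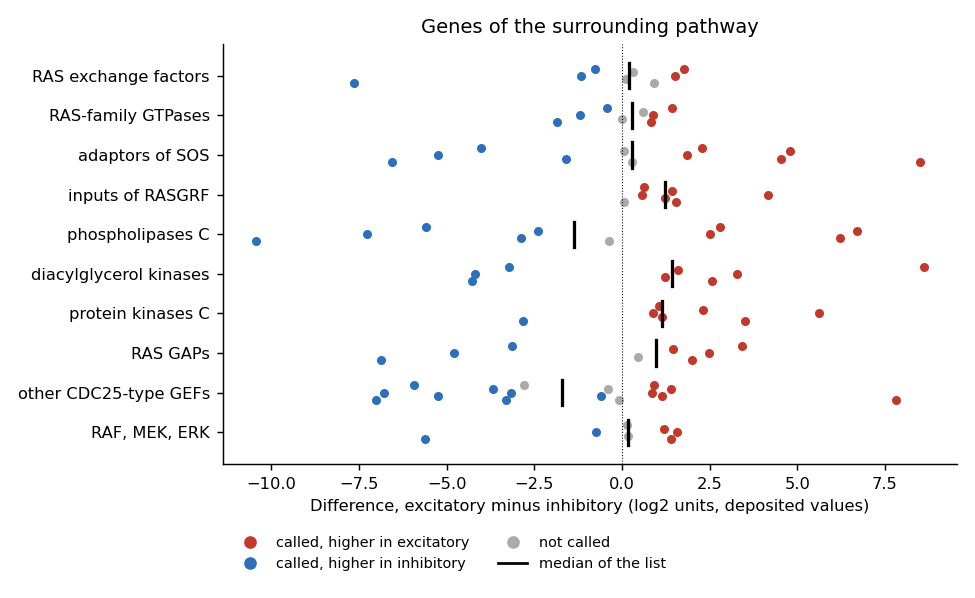
Difference between labels (log2 units of the deposited values, excitatory minus inhibitory, horizontal axis) of every tested gene in the 10 lists; each point is a gene, coloured by call, and the black bar is the median of its list. Medians run from -1.71 for the other CDC25-type exchange factors to 1.42 for the diacylglycerol kinases, and 9 of the 10 lists hold called genes on both sides of 0, the inputs of RASGRF being the exception.

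Among the tested genes, those closest to a member over the 4 values were found by Euclidean distance on the log2 scale. Genes with names starting with Gm and a digit, or ending in Rik, were left out of this search. Dlgap4, a postsynaptic scaffold gene, was closest to Rasgrf1 with 13.61, 13.55, 11.93 and 11.86 (distance 0.10), followed by Ndn (0.14). Cpsf3 and Sgk3 were closest to Rasgrp3, at distances of 0.47 and 0.67. Ninj1 and Dbp were closest to Sos2 (0.16 and 0.19), and Ddrgk1 and Cand1 to Rasgrp4 (0.12 and 0.20). Xrcc1 was closest to Sos1 (0.35), Cerk to Rasgrf2 (0.29), Zfyve21 to Rasgrp1 (0.23) and Zfp575 to Rasgrp2 (0.24). Such closeness rests on 4 libraries in 2 pairs.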

How the data were processed

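Total RNA of hand-picked cells was turned into cDNA with the SMART-seq v4 kit and into libraries with the Nextera XT kit, per the labels' protocols. TopHat, edgeR and mm10 are named in the submitters' processing notes, while their roles, the read counter and its annotation are not given in the sources that were used. The authors' deposited values are on a log2 scale. Powers of 2 of the low values fell at whole multiples of a step (offset -3.50% to 0.47% of the step, against 15.5% to 42.4% in size had 1 been added), so they were read as log2 of scaled reads with no added 1. Reads were only estimated, since a gene-dependent adjustment remained, and no count model was run.

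In R 4.3.3, limma 3.58.1 with a mean-variance trend fitted 13619 genes (value 1 or more in 2 or more libraries), with 2.56 prior and 2 residual degrees of freedom and Benjamini-Hochberg adjustment. Genes left at 0 stayed at 0. The alternatives included scaling by median of ratios or by upper quartile (linear values, 1 added), 2 filters, a pseudocount of 10, no trend, a replicate block and leaving out each library with the same genes. Ratios were tested with SciPy 1.17.1. Exon lengths came from GENCODE M21. The limma fit alone was run on simulated data, with independent noise and a far smaller share of changed genes than was called here. The other steps were not run on simulated data.

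The members and lists were chosen with earlier results of these data known. Genes named are the 8 members, up to 5 called genes of each list by smallest p, and list genes at 0 under one label and at least 5 in both libraries of the other, besides label checks, marker genes and the closest genes to each member. A few genes of these lists are not reported here.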

Additional observations from a re-analysis of the deposited data

How the results depend on the processing

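Of 88 member differences recomputed under alternatives, 63 kept their direction and their side of the threshold. Rasgrf1 and Rasgrp3 did so under every alternative run. Median-of-ratios scaling turned the split of all called genes from 6122 excitatory and 3655 inhibitory into 4396 and 4546. Rasgrp2 changed direction under median-of-ratios scaling (-0.43), upper-quartile scaling (-0.41) and without inhibitory replicate 2 (-0.11, with 0.33 as the other end of the range over left-out libraries), and Rasgrp4 under the scalings (-0.23 and -0.21); neither passed in any. Members higher in the excitatory libraries went from 2 to 1 under both scalings, with no filter (4 members in all) and without the trend, as Sos1 was lost (limma adjusted p = 0.161, 0.167, 0.0562 and 0.0558); the cause was not tested. Rasgrf2 passed with a minimum of 5 (0.0445), a pseudocount of 10 (0.0402) and without excitatory replicate 2 (0.0435). Adding 10 moved the Rasgrp1 to Rasgrp3 ratio difference to 6.16 and that of Rasgrp2 to Rasgrp3 to 7.03.

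Leaving out 1 library left 2 to 3 members called, 1 to 2 higher under the excitatory and 1 under the inhibitory label, of 6103 to 6551 genes called in all; the fit then has 1 residual degree of freedom, and the lone library is assumed to vary like the others. Of the pathway genes 43 to 50 then passed, 21 to 28 higher in the excitatory and 18 to 23 in the inhibitory libraries. The log2 ratio differences then ran from 2.06 to 3.31 (Sos1 to Sos2), 0.55 to 1.16 (Rasgrf1 to Rasgrf2), -1.04 to -0.71 (Rasgrp1 to Rasgrp2), 6.52 to 7.26 (Rasgrp1 to Rasgrp3) and 7.27 to 8.26 (Rasgrp2 to Rasgrp3). Same-numbered libraries did not deviate together (correlation across genes -0.0019). This correlation cannot decide whether they share a batch, since it sees only deviations that are larger than the noise of each library. With the replicate block 6 members passed, Rasgrf2 added (limma adjusted p = 0.0356), and 9782 genes in all. Of 16 shares, 9 moved by more than their SD with the longest transcript.

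Depth limits Sos1 and the excitatory values of Rasgrp3, which rest on 10 to 138 estimated reads; no counting interval was computed.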
